A study of Mus musculus with 40 samples.

Results

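The homeobox regulators *Six2*, *Six4*, *Pitx1*, *Lbx1* and *Meox2* and the cofactors *Eya1*, *Eya2* and *Eya4*, which act in the development of muscle and limb, were followed in the gastrocnemius and the quadriceps of adult mice. The genes were chosen by symbol, and no signal threshold entered the choice, but earlier results of these data were known when they were chosen. Of the 8 genes, 7 were matched to a row among the 16475 probe sets, and *Lbx1* was not analysed here. Both muscles of 20 male mice were hybridised separately to Affymetrix mouse genome arrays, 40 in all, and signals are given here as linear intensities. The groups, with 10 mice each, were the gastrocnemius after a high fat diet (HFD) and the quadriceps of the same HFD mice, and the gastrocnemius after a low fat diet (LFD) and the quadriceps of the same LFD mice. All mice had been on a low fat run-in diet for 3 weeks, starting at 9 weeks of age, were fed the HFD or the LFD for 8 weeks and were 20 weeks old at dissection. The labels spell the strain C56BL/6J and the methods of the study C57BL/6J, and the extraction protocol in the labels speaks of the quadriceps for every array. The muscle was therefore taken from the titles and characteristics, which are in accord with each other for each array. Whole muscle was used, so that fewer cells of a type and less RNA per cell cannot be told apart. The study was designed to find genes that specify muscle types, and whether these developmental regulators differ between the muscles, or with the diet, is the question of the comparisons below.

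Six-family proteins, named after the fly gene sine oculis, bind DNA through a homeodomain beside a conserved domain of their own. In muscle promoters their site is known as MEF3, and they need Eya proteins, which bind to them and carry phosphatase and transactivation activities, to activate genes. Dach proteins are the repressing partners in the same network. In mice, Six-family and Eya proteins act upstream of the myogenic regulatory factors in the embryo and have been described as activators of the fast fiber program in adult muscle. *Pitx1* sets hindlimb identity, *Lbx1* guides migrating muscle precursors into the limb, and *Meox2* (Mox2) takes part in the patterning of limb muscles.

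Of these regulators, *Six4* and *Eya1* had lower levels in the gastrocnemius than in the quadriceps. Averaged over both diets, in a fit chosen after seeing the data, the gastrocnemius had 0.844 times the *Six4* signal and 0.83 times the *Eya1* signal of the quadriceps. Both differences passed the false discovery rate (FDR), as 18.0% of all tested genes did, but stayed under a 1.3-fold change. Within a diet, in the main fit without a mouse block, *Six4* passed the FDR in LFD mice alone and *Eya1* in neither diet. With the mouse as a fixed block, which uses the pairing of the muscles, both passed it in LFD mice. There the adjusted p was 0.0104 for *Six4* and 0.00884 for *Eya1* (limma), and neither passed in HFD mice. In the averaged fit, *Meox2* lay slightly the other way, at 1.1 times the signal of the quadriceps, and did not pass. Among the alternatives it passed only with the mouse as a fixed block (limma, adjusted p = 0.0493). Mean signals of *Six2*, *Eya4*, *Eya2* and *Pitx1* were under 20, the level that the study and the tests here used as the limit of detectable expression. Of these, *Six2* was higher in the gastrocnemius in 17 of 20 mice. Its averaged difference passed the FDR in a fit of all probe sets, under a 1.3-fold change and at a signal where differences depend on the background correction. None of the regulators was called for an effect of the diet.

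The promoter sequences of *Six4*, *Six2* and *Meox2* are shown because the first pair encodes the DNA-binding Six-family members measured here and *Meox2* is the other homeobox gene with a signal over 20 on all arrays. The set of RefSeq promoter sequences used here (GRCm38.p6) covered 4 of the 8 genes. The 250 bases before the start were searched on both strands for the core of the MEF3 site (TCAGGTT), for the E-box of myogenic factors (CANNTG) and for the bicoid-type site of Pitx proteins (TAATCC). Matches are in capitals, and each sequence runs 5′ to 3′ in the direction of transcription.
Six4, chr12:73113246-73113495, minus strand: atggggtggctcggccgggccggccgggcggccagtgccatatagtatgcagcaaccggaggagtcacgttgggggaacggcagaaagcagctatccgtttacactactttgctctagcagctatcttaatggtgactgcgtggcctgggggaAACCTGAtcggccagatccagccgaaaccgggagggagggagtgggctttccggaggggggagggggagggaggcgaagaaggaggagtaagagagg
Six2, chr17:85688255-85688504, minus strand: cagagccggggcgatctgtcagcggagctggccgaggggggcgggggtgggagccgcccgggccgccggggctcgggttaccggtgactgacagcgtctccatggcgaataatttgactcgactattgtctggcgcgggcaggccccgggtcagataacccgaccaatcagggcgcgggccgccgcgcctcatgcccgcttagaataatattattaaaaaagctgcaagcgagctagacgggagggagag
Meox2, chr12:37108290-37108539, plus strand: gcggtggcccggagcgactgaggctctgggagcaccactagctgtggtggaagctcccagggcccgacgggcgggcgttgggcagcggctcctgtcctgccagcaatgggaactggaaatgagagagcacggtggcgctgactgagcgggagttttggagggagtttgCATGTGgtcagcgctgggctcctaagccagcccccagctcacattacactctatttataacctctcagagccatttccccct
The *Six4* promoter held 1 MEF3 core, in reverse (AACCTGA), beginning 97 bases before the start. Such a match was found in 3.49% of 32851 promoter windows of the same length. The window of another *Six4* start (chr12:73113426-73113675, minus strand) held none. The *Meox2* promoter held 1 E-box, beginning 82 bases before the start, and 66.2% of all windows held at least 1. The *Six2* window held no match to the motifs searched. No window of these genes held the TAATCC site, which 6.25% of all windows did. The GC content was 62.0% for both the *Six4* and the *Meox2* sequences printed and 64.8% for *Six2*, against a median of 52.4% over all windows. These matches are a description of the letters in these windows.

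Detection was examined first. The mean signal over the 40 arrays was over 20 for 3 of the 7 matched genes, *Eya1* (255.5), *Meox2* (190) and *Six4* (40.2), and these were over 20 on each of the 40 arrays. It was 14.1 for *Six2*, 10.4 for *Eya4*, 4.24 for *Eya2* and 3.27 for *Pitx1*. The median signal of an array was 8.8 to 9.4, so that *Eya2* and *Pitx1* lay under the median probe set of every array. Of all 16475 probe sets, 6479 (39.3%) had a mean over 20 and entered the tests. For the 4 genes under that level, differences depend on the background correction, and they are given with an adjusted p from a fit of all 16475 probe sets.

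**Figure D1:**
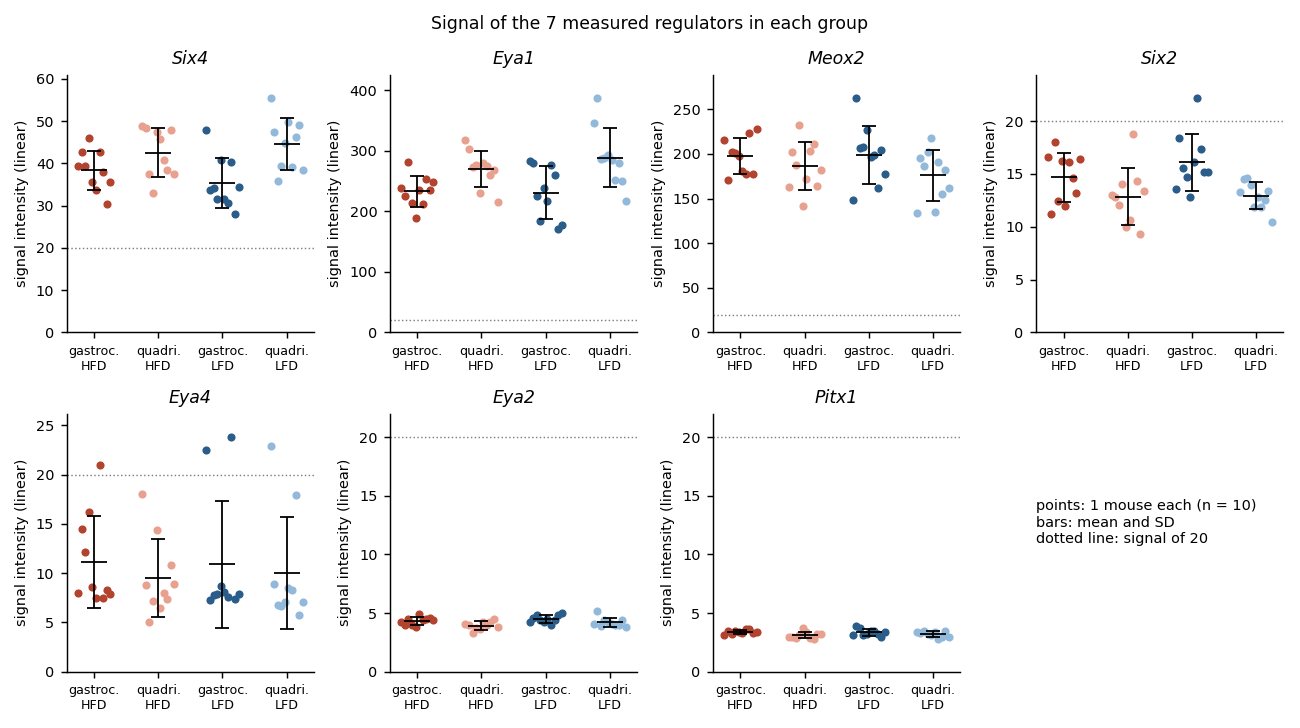
Signal intensity (linear scale) of the 7 measured regulators in the gastrocnemius and quadriceps of HFD and LFD mice, with 1 point per mouse (n = 10 per group), the mean and the SD, and a dotted line at a signal of 20. *Six4*, *Eya1* and *Meox2* lie over 20 on all arrays, with overlapping groups, and *Eya4* has a few high arrays in each group.

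*Six4* encodes a Six-family homeoprotein of the muscle lineage. In HFD mice it ranged from 30.4 to 46.1 (median 38.7) in the gastrocnemius and from 33.0 to 48.9 (median 43.3) in the quadriceps, with means of 38.3 ± 4.71 and 42.6 ± 5.76 (SD, n = 10 each). In LFD mice it ranged from 28.1 to 47.8 (median 34.0) in the gastrocnemius and from 35.8 to 55.5 (median 45.6) in the quadriceps, with means of 35.3 ± 5.96 and 44.6 ± 6.25 (SD, n = 10 each). The groups overlapped in both diets, but within a mouse the gastrocnemius was the lower muscle in 7 of 10 HFD mice and in 10 of 10 LFD mice. The log2 difference (gastrocnemius over quadriceps) was -0.15 in HFD mice (SE 0.0835, ratio 0.902, limma with Benjamini-Hochberg adjustment over all tested genes, adjusted p = 0.375) and -0.34 in LFD mice (SE 0.0938, ratio 0.79, adjusted p = 0.0363). The inverse of the LFD ratio, 1.27, is under the 1.3-fold threshold of a call. With 1 mouse left out, the adjusted p in LFD mice ran from 0.0107 to 0.116, and it stayed under 0.05 without mouse 141, 147 or 153 but not in the other 7 fits.

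*Eya1* encodes a Six-family cofactor and phosphatase. In HFD mice its signal ranged from 188.6 to 280.8 (median 234.8) in the gastrocnemius and from 216.0 to 318.1 (median 274.1) in the quadriceps, with means of 233 ± 25.5 and 270 ± 30.3 (SD, n = 10 each). In LFD mice it ranged from 170.1 to 282.2 (median 231.6) in the gastrocnemius and from 216.1 to 387.0 (median 285.6) in the quadriceps, with means of 231 ± 43.3 and 288 ± 48.6 (SD, n = 10 each). The gastrocnemius was the lower muscle in 8 of 10 HFD mice and in 9 of 10 LFD mice, and the groups overlapped in both diets. The log2 difference was -0.21 in HFD mice (SE 0.0727, ratio 0.864, limma, adjusted p = 0.0927) and -0.33 in LFD mice (SE 0.11, ratio 0.797, adjusted p = 0.0899). With the mouse as a fixed replicate block, which uses the pairing of both muscles of a mouse, the adjusted p in HFD mice was 0.105 for *Eya1* and 0.485 for *Six4*, and in LFD mice 0.00884 for *Eya1* and 0.0104 for *Six4*.

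*Meox2*, a homeobox gene of somites and limb muscle that is also expressed in vascular cells, ranged in HFD mice from 170.6 to 228.4 (median 199.3) in the gastrocnemius and from 142.1 to 232.6 (median 185.2) in the quadriceps. In LFD mice it ranged from 147.8 to 262.7 (median 201.9) in the gastrocnemius and from 134.3 to 218.4 (median 183.8) in the quadriceps. The gastrocnemius was the higher muscle in 7 of 10 HFD mice and in 10 of 10 LFD mice. The groups overlapped widely, and the log2 difference of 0.09 in HFD mice (SE 0.0804, limma, adjusted p = 0.628) and of 0.18 in LFD mice (SE 0.102, adjusted p = 0.381) did not pass the test. The 95% interval of the ratio ran from 0.95 to 1.2 in HFD mice and from 0.977 to 1.31 in LFD mice.

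Of the 3 tested regulators, 0 were called in HFD mice, where 3.46% of all 6479 tested genes were called (224 genes), and 0 in LFD mice, where 2.52% were (163 genes). A gene was called where its fold change exceeded 1.3 with a limma FDR under 0.05. At an unadjusted p under 0.05 there was 1 of the 3 in HFD mice (*Eya1*), beside 18.7% of all tested genes, and 2 in LFD mice (*Six4* and *Eya1*), beside 19.0%. By the FDR alone, 0 of the 3 passed in HFD mice, where 6.62% of all tested genes did, and 1 in LFD mice (*Six4*), where 5.22% did. The median log2 difference over the 3 regulators was -0.15 in HFD mice, beside -0.02 over all tested genes, and -0.33 in LFD mice, beside -0.01.

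To use all mice at once, the muscle difference was also averaged over the diets in the added fit, which holds all 40 arrays. *Eya1* then had a log2 difference of -0.27 (SE 0.0672, 95% interval of the ratio 0.755 to 0.912, limma, adjusted p = 0.00361), with the gastrocnemius lower in 17 of 20 mice. *Six4* had -0.24 (SE 0.0637, interval 0.772 to 0.923, adjusted p = 0.00521), also lower in 17 of 20 mice. *Meox2* had 0.14 (SE 0.066, interval 1.0 to 1.21, adjusted p = 0.169) and was higher in 17 of 20 mice. At the 1.3-fold threshold 0 of the 3 were called, against 3.75% of all tested genes, and 3 of the 3 had an unadjusted p under 0.05, as 28.0% of all tested genes did. By the FDR alone 2 of the 3 passed, where 18.0% of all tested genes did. Both passed it in each of the 20 fits that left out 1 mouse, with an adjusted p of 0.00207 to 0.00868 for *Eya1* and of 0.00127 to 0.0155 for *Six4*.

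**Figure D2:**
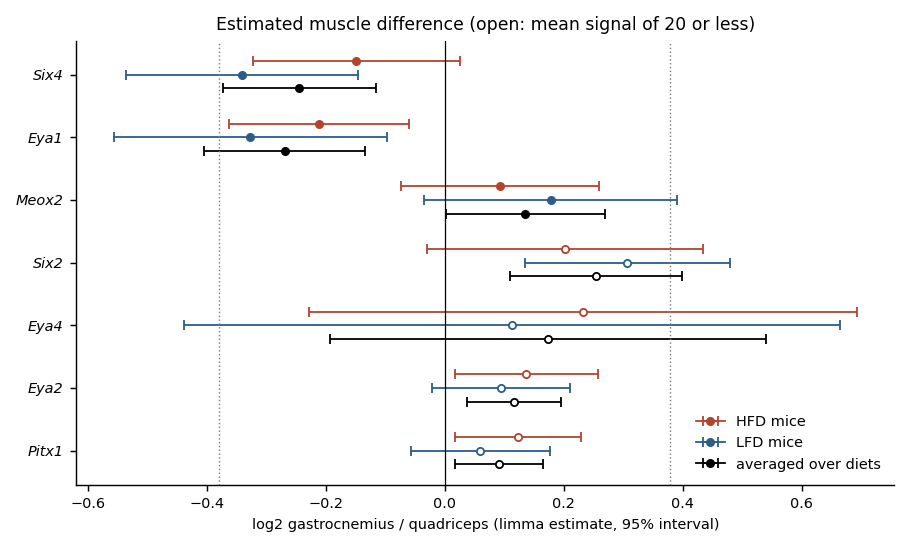
Estimated log2 ratio of gastrocnemius over quadriceps with its 95% interval (limma) for the 7 regulators in HFD mice, LFD mice and averaged over diets, with dotted lines at a 1.3-fold change and open symbols for genes with a mean signal of 20 or less. The intervals of *Eya1* lie under 0 in all comparisons, and the averaged estimates of all 7 genes lie between the dotted lines.

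The 4 regulators near or under the background gave averaged differences under 1.3-fold. That of *Six2* was about as large as those of *Six4* and *Eya1* and passed the FDR in the fit of all 16475 probe sets. The share of all probe sets that passed in that fit was not counted. *Six2*, a Six-family gene of head, kidney and limb connective tissue, ranged in HFD mice from 11.2 to 18.0 (median 15.4) in the gastrocnemius and from 9.3 to 18.8 (median 12.9) in the quadriceps. In LFD mice it ranged from 12.8 to 22.2 (median 15.4) in the gastrocnemius and from 10.5 to 14.6 (median 13.1) in the quadriceps. The gastrocnemius was the higher muscle in 7 of 10 HFD mice and in 10 of 10 LFD mice. The averaged log2 difference was 0.25 (SE 0.0713, ratio 1.19, limma over all 16475 probe sets, adjusted p = 0.0157), with 0.20 in HFD mice (adjusted p = 0.484) and 0.31 in LFD mice (adjusted p = 0.0521). *Eya2*, another Six-family cofactor, ranged from 3.8 to 5.0 over both gastrocnemius groups and from 3.3 to 5.2 over both quadriceps groups (averaged log2 difference 0.12, adjusted p = 0.0551). *Pitx1*, the hindlimb identity gene, ranged from 3.0 to 3.9 over both gastrocnemius groups and from 2.8 to 3.7 over both quadriceps groups (0.09, adjusted p = 0.121). These values are at the background of the arrays, and expression of *Eya2* and *Pitx1* was not detectable at this level.

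**Figure D3:**
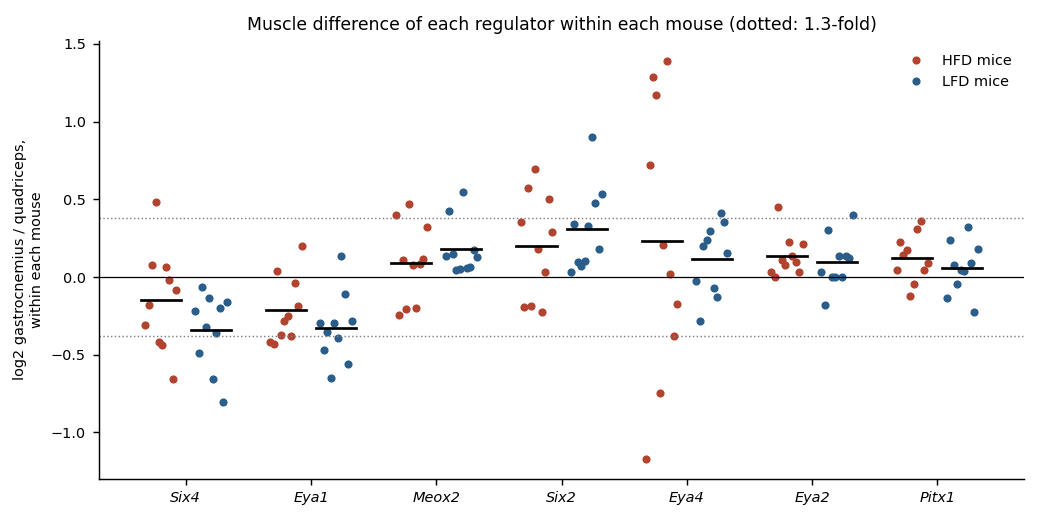
Log2 ratio of gastrocnemius over quadriceps within each mouse for the 7 regulators, with HFD mice left of LFD mice, short bars at the group means and dotted lines at a 1.3-fold change. All 10 LFD mice lie below 0 for *Six4* and above 0 for *Meox2* and *Six2*, and *Eya4* has the widest spread, in HFD mice.

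*Eya4*, a further Eya cofactor, was low on most arrays and high on a few. In HFD mice the highest signals were in the gastrocnemius of mouse 151 (21.0) and in the quadriceps of mouse 143 (18.0). In LFD mice its signal in mouse 141 was 22.5 for the gastrocnemius and 22.9 for the quadriceps, and in mouse 156 it was 23.8 and 17.9. The group medians were 8.45 in the gastrocnemius and 8.4 in the quadriceps of HFD mice, and 7.9 in the gastrocnemius and 7.7 in the quadriceps of LFD mice. High arrays thus came from both muscles and both diets, and the averaged muscle difference of 0.17 (SE 0.181, log2) did not pass the test (limma over all probe sets, adjusted p = 0.673).

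The arrays with high *Eya4* stood apart in many other genes as well. On the first principal component of the deviations from the group means, which held 28.9% of their variance and was computed without the 7 regulators, 11 arrays scored between -20.1 and -13.2, and the other 29 between -1.5 and 12.7. The 11 arrays were of the gastrocnemius of mice 144, 146 and 151 (HFD), the quadriceps of mice 143, 149 and 157 (HFD), the gastrocnemius of mice 141 and 156 (LFD) and the quadriceps of mice 141, 154 and 156 (LFD). *Eya4* ranged from 8.5 to 23.8 (median 17.9) on the 11 arrays and from 5.0 to 12.2 (median 7.8) on the other 29. *Six4* ranged from 40.4 to 55.5 (median 47.5) on the 11 and from 28.1 to 49.1 (median 37.6) on the 29. *Meox2* ranged from 134.3 to 201.4 (median 162.2) on the 11 and from 162.0 to 262.7 (median 201.7) on the 29. *Eya1* had a median of 267 on the 11 and 251 on the 29, but its groups did not go 1 way. In the gastrocnemius of LFD mice its median was 270.9 on the 2 arrays apart and 220.8 on the others. It was lower on the arrays apart in the gastrocnemius of HFD mice (213.3 against 238.6). The same held in the quadriceps of HFD mice (267.3 against 275.3) and of LFD mice (284.4 against 286.8). The median signal of an array was 8.8 to 9.3 for the 11 and 8.9 to 9.4 for the 29, and what sets the 11 arrays apart was not tested. Without them, the averaged muscle difference was -0.25 for *Six4* (adjusted p = 0.00449), -0.26 for *Eya1* (adjusted p = 0.0259) and 0.09 for *Meox2* (adjusted p = 0.323).

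**Figure D4:**
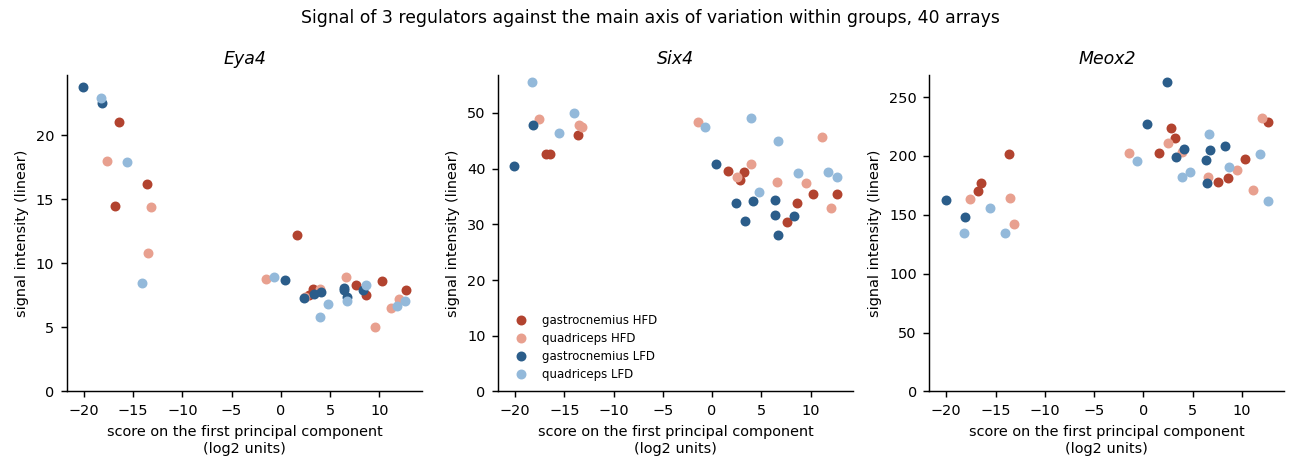
Signal intensity (linear scale) of *Eya4*, *Six4* and *Meox2* against the score of each of the 40 arrays on the first principal component of the deviations from group means, colored by group. The 11 arrays at the left include the highest *Eya4* and *Six4* signals and the lowest *Meox2* signals and come from all 4 groups.

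Whether the muscle difference depended on the diet was tested as an interaction in a fit of all 40 arrays. The log2 interaction (HFD minus LFD) was 0.19 for *Six4* (SE 0.127, 95% interval -0.07 to 0.45), 0.12 for *Eya1* (SE 0.134, -0.16 to 0.39) and -0.09 for *Meox2* (SE 0.132, -0.35 to 0.18), each with an adjusted p of 0.9998 in limma. None of the 3 was called, and 0.0% of all tested genes were (0 called and 118 at an unadjusted p under 0.05). The larger *Six4* difference in LFD mice was therefore not shown to differ from that in HFD mice. In the gastrocnemius, the effect of HFD over LFD was 0.13 for *Six4*, 0.03 for *Eya1* and -0.002 for *Meox2* on the log2 scale (adjusted p 0.779 to 0.998). In the quadriceps it was -0.07 for *Six4*, -0.09 for *Eya1* and 0.08 for *Meox2* (adjusted p = 0.998 for each). For the diet, 0 of the 3 were called in the gastrocnemius, against 0.216% of all tested genes, and 0 in the quadriceps, against 0.0617%, and 0 of the 3 had an unadjusted p under 0.05 in either muscle. The 95% intervals of the diet ratios of the 3 genes ran from 0.824 (*Eya1* in the quadriceps) to 1.24 (*Six4* in the gastrocnemius).

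Slow fiber markers were higher in the gastrocnemius, where *Six4* and *Eya1* were lower, and 0 of 6 fast fiber markers were called. Of 6 slow fiber genes, 5 were called higher in the gastrocnemius in either diet, beside 3.46% of all tested genes called in HFD and 2.52% in LFD mice. All 6 were higher there at an unadjusted p under 0.05 (limma) in both diets. Among the called were the slow myosin heavy chain *Myh7* (log2 difference 3.22 in HFD and 3.10 in LFD mice, adjusted p = 0.0081 and 0.0361) and the slow troponin *Tnni1* (3.06 and 3.05, adjusted p = 0.0012 and 0.00447). For each of these genes 3 of 10 quadriceps arrays in either diet were not over 20, with a lowest *Myh7* signal of 4.9 in HFD and 3.2 in LFD mice, so that the log2 differences depend on the background correction. The ratio of the mean signals was smaller, 4.46 in HFD and 3.26 in LFD mice for *Myh7* and 5.28 and 4.46 for *Tnni1*. The summed signal of the 6 genes ranged in HFD mice from 6529 to 11310 in the gastrocnemius and from 86.5 to 4837 in the quadriceps, and in LFD mice from 5294 to 12140 in the gastrocnemius and from 163.4 to 6976 in the quadriceps. Whether slow fiber content varied with the regulators between mice of a group was examined within each muscle, with both values as deviations from the group mean. The slow fiber level was the mean log2 signal of 5 of the 6 genes, without *Myl3*, and with *Myl3* r for *Eya1* in the gastrocnemius was -0.67 (permutation p = 0.00172, adjusted p = 0.0103), an alternative added after seeing the data. In the gastrocnemius, *Eya1* was lower in mice with higher slow fiber genes (Pearson r = -0.66, permutation p = 0.0019, adjusted p = 0.0114; Spearman rho = -0.64, permutation p = 0.00309, adjusted p = 0.0185; 20 mice, adjusted over 6 relations). The mice with the lowest slow fiber levels, 145 (HFD) and 141 (LFD), had the highest *Eya1* of their groups, 280.8 and 282.2, and mouse 159 (LFD), with the highest slow fiber level, had the lowest *Eya1*, 170.1. Without the mice 145 and 141, which lay farthest from the median, r was -0.54 (permutation p = 0.0197, adjusted p = 0.118) and did not pass. Leaving out these mice also narrows the range and leaves 18 mice, so that it cannot decide whether the relation rests on them. The r was -0.61 without mouse 141 alone (adjusted p = 0.0331), and -0.61 without the 5 gastrocnemius arrays that stood apart (adjusted p = 0.0973). Within a diet, r was -0.52 in HFD mice (permutation p = 0.124) and -0.77 in LFD mice (permutation p = 0.0113, adjusted p = 0.0677), with 10 mice each.

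**Figure D5:**
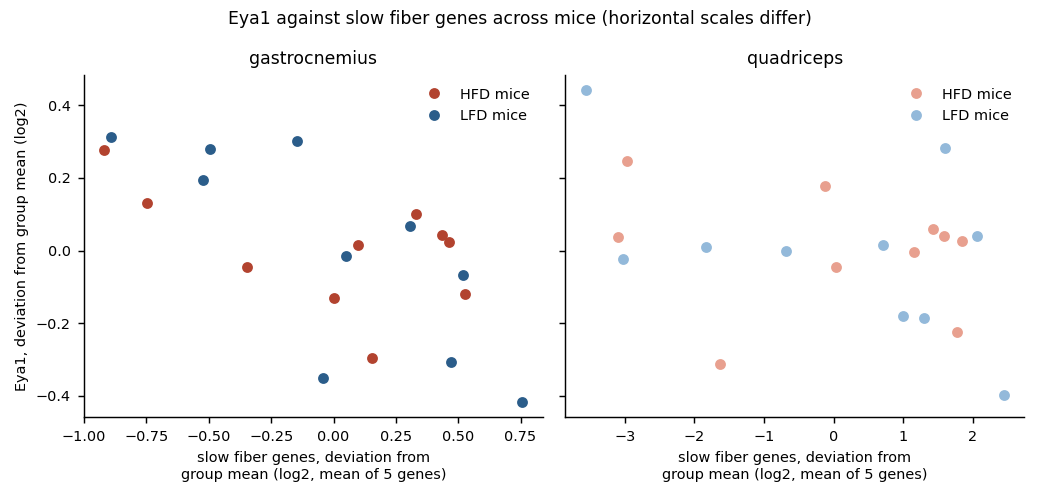
*Eya1* against the mean of 5 slow fiber genes (*Myh7*, *Tnni1*, *Tnnt1*, *Tnnc1* and *Myl2*), both as log2 deviations from the mean of the group, with 1 point per mouse, gastrocnemius at left and quadriceps at right on a wider horizontal scale. In the gastrocnemius the points fall from upper left to lower right (r = -0.66), and in the quadriceps r is -0.39.

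In the quadriceps, r with the slow fiber genes was -0.39 for *Eya1* (permutation p = 0.0883, adjusted p = 0.177). Spearman rho was -0.20 (permutation p = 0.396). The slow fiber deviations there ran from -3.56 to 2.44, against -0.92 to 0.76 in the gastrocnemius. The quadriceps of mice 142, 151, 156 and 143 lay at -3.56, -3.10, -3.03 and -2.97, and the next lowest at -1.835 (mouse 147). *Myh7* fell to 4.9 in the quadriceps of HFD mice and to 3.2 in LFD mice, near the background. *Myl2*, over 20 on all quadriceps arrays, ranged there from 28.4 to 857.5 in HFD mice and from 31.7 to 1408.4 in LFD mice. The part of the background correction in the wider spread was not tested. With mice 142, 151, 156 and 143 set apart from the rest, r in the quadriceps cannot decide whether the regulators vary with slow fiber content there. For *Six4*, r was -0.45 in the gastrocnemius (permutation p = 0.0459, adjusted p = 0.138) and -0.08 in the quadriceps (adjusted p = 0.876), and for *Meox2* 0.31 (adjusted p = 0.288) and -0.02 (adjusted p = 0.939). A difference between the muscles in these correlations was not tested.

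The level of a regulator in one muscle was also set against that in the other muscle of the same mouse, as deviations from the group means of 20 mice. Pearson r was 0.49 for *Eya1* (permutation p = 0.0273, adjusted p = 0.0453 over 3 relations; rho = 0.33, permutation p = 0.155, adjusted p = 0.233), 0.49 for *Meox2* (permutation p = 0.0302, adjusted p = 0.0453; rho = 0.46, permutation p = 0.0427, adjusted p = 0.128) and 0.01 for *Six4* (adjusted p = 0.951; rho = -0.06, permutation p = 0.793). Without the mice farthest from the median, r was 0.26 for *Eya1* (mice 142 and 160, adjusted p = 0.445) and 0.39 for *Meox2* (mice 141 and 149, adjusted p = 0.324). Neither passed in the 18 mice left, which also span a narrower range. Without mouse 141 alone, r was 0.43 for *Eya1* (adjusted p = 0.198) and 0.36 for *Meox2* (adjusted p = 0.199). In the 11 mice with no array that stood apart, which leaves out 141 and 149 too, r was 0.47 for *Eya1* (permutation p = 0.147, adjusted p = 0.221) and 0.63 for *Meox2* (permutation p = 0.0361, adjusted p = 0.108), so that neither passed although r was about as large or larger than in 20 mice. For *Meox2* r was 0.03 in HFD mice (permutation p = 0.932) and 0.74 in LFD mice (permutation p = 0.0126, adjusted p = 0.0378), and for *Eya1* 0.13 in HFD mice (permutation p = 0.73) and 0.64 in LFD mice (permutation p = 0.0446, adjusted p = 0.067). The difference between the diets in these correlations was not tested. The order of the diets was not particular to these regulators. Taken across all tested genes, the correlation between both muscles of a mouse had a median of -0.069 in HFD mice and 0.388 in LFD mice.

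Of the other genes of the Six-Eya-Dach network, 6 of 7 were matched and 1, *Dach2*, had a mean signal over 20. *Dach2*, a repressor that responds to innervation in mouse muscle, ranged in HFD mice from 14.9 to 34.8 (median 24.4) in the gastrocnemius and from 15.3 to 49.8 (median 25.7) in the quadriceps, and in LFD mice from 8.4 to 22.8 (median 18.2) in the gastrocnemius and from 13.2 to 32.6 (median 22.2) in the quadriceps. Its log2 difference of -0.10 in HFD mice (limma, adjusted p = 0.85) and -0.43 in LFD mice (SE 0.21, adjusted p = 0.27) did not pass. Its effect of HFD over LFD in the gastrocnemius was larger, 0.62 on the log2 scale (SE 0.201, ratio 1.54, unadjusted p = 0.00357), with 9 of 10 arrays over 20 in HFD mice and 1 of 10 in LFD mice, but did not pass the FDR either (limma, adjusted p = 0.189). In the quadriceps the effect was 0.30 (adjusted p = 0.998). *Six5*, *Eya3* and *Dach1* lay between 4.7 and 9.5 on all arrays.

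Among other homeobox genes of limb and muscle, 22 of 25 were matched and 3 were tested. *Irx3*, an Iroquois gene of limb and metabolic tissues, was the 1 gene called, and it was lower in the gastrocnemius in both diets. Of all tested genes, 3.46% were called in HFD and 2.52% in LFD mice. It ranged in HFD mice from 73.6 to 102.7 (median 85.0) in the gastrocnemius and from 104.5 to 147.7 (median 120.8) in the quadriceps, and in LFD mice from 64.9 to 95.4 (median 70.9) in the gastrocnemius and from 76.1 to 126.6 (median 103.1) in the quadriceps. The groups did not overlap in HFD mice, and the gastrocnemius was lower in 20 of 20 mice. The share of all tested genes without overlap was not counted. The log2 difference was -0.51 in HFD mice (SE 0.0718, limma, adjusted p = 6.64e-05) and -0.47 in LFD mice (SE 0.0921, adjusted p = 0.00319). *Prrx1*, of limb mesenchyme, and *Pknox1*, a TALE homeobox gene, did not pass (log2 differences 0.24 and 0.09 in HFD mice, 0.04 and 0.13 in LFD mice). *En1* and *Meis1* passed only in the fit of all probe sets, near the background, and are named for that after their values were seen. *En1*, the ventral limb gene, averaged 10.9 in the gastrocnemius and 7.67 in the quadriceps of HFD mice, and 14.8 in the gastrocnemius and 7.38 in the quadriceps of LFD mice (adjusted p = 0.0255 and 0.00135). *Meis1*, a proximal limb gene, averaged 13.5 in the gastrocnemius and 20.4 in the quadriceps of HFD mice (adjusted p = 0.000783), and 15.98 in the gastrocnemius and 20.8 in the quadriceps of LFD mice (adjusted p = 0.159).

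Of 8 hindlimb and myogenic partners, 3 were tested and 0 called in either diet, beside 3.46% of all tested genes in HFD and 2.52% in LFD mice. At an unadjusted p under 0.05 (limma) there were 2 in HFD mice, beside 18.7% of all tested genes, and 1 in LFD mice, beside 19.0%. *Myf6* (MRF4), a myogenic factor of mature fibers, averaged 1775 ± 204 in the gastrocnemius and 1499 ± 108 in the quadriceps of HFD mice, and 1663 ± 147 in the gastrocnemius and 1459 ± 108 in the quadriceps of LFD mice (SD, n = 10 each). Its log2 difference of 0.24 in HFD mice (adjusted p = 0.0231) and 0.19 in LFD mice (adjusted p = 0.0519) was under 1.3-fold, with the gastrocnemius higher in 10 of 10 HFD and 9 of 10 LFD mice. *Hoxc10*, a Hox gene of the hindlimb, had a log2 difference of -0.16 in HFD mice (adjusted p = 0.0393) and -0.04 in LFD mice (adjusted p = 0.781), also under 1.3-fold. *Myod1*, the myogenic determination factor, had -0.22 in HFD mice and -0.06 in LFD mice (adjusted p = 0.667 and 0.882). *Tbx4*, which acts beside *Pitx1* in the hindlimb, lay between 3.1 and 6.6 on all arrays.

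Fast fiber genes that have been described as targets of Six-family proteins were not among the called genes. Of 14 such genes, 13 were matched and tested and 0 were called in either diet, beside 3.46% of all tested genes in HFD and 2.52% in LFD mice. At an unadjusted p under 0.05 (limma) there were 0 in HFD mice, beside 18.7% of all tested genes, and 1 in LFD mice, beside 19.0%. Their median log2 difference was -0.03 in HFD mice (range -0.07 to 0.03) and -0.02 in LFD mice (range -0.17 to 0.02), beside -0.02 and -0.01 over all tested genes. The fast myosin heavy chains *Myh4* and *Myh1* had -0.04 and -0.07 in HFD mice and -0.17 and -0.12 in LFD mice, and the fast troponin *Tnni2* had 0.01 and 0.005. Signals of these abundant genes lie at the upper end of the scale, where arrays can saturate, and the part of saturation was not tested.

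Over the 40 arrays, the named genes whose log2 signal was most like that of *Six4* were *Pmpca* (Pearson r = 0.84), *Sav1* (0.83) and *Ogt* (0.81). For *Eya1* they were *Krr1* (0.75), *Oxr1* (0.70) and *Tbx15* (0.69), and for *Meox2* *Herc3* (0.84), *Lmo7* (0.82) and *Eid1* (0.80). On deviations from the group means they were *Hipk3*, *Pccb* and *Pmpca* (0.84 each) for *Six4*, *Krr1* (0.78), *Polr3k* (0.72) and *Slc9a2* (0.69) for *Eya1*, and *Kpnb1* (0.86), *Herc3* (0.84) and *Yod1* (0.82) for *Meox2*. Between the regulators, the r of these deviations was 0.37 for *Six4* with *Eya1*, 0.69 for *Six4* with *Eya4*, -0.48 for *Six4* with *Meox2* and -0.64 for *Eya4* with *Meox2*. These values describe 40 arrays that share the mice and the axis on which 11 arrays stood apart.

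The tissue was checked against marker lists. Of all tested genes, 3.46% were called in HFD mice, 2.52% in LFD mice and 3.75% in the averaged difference. All 5 skeletal muscle markers were tested and 0 were called, and their summed signal lay between 89480 and 101000 in all groups. Of the 6 fast fiber markers 0 were called in either diet, with a median log2 difference of -0.03 in HFD and -0.02 in LFD mice. Of 2 tested satellite cell markers 0 fell in HFD mice and 1 in LFD mice (*Chodl*), and of 7 fibroblast markers 2 fell in HFD mice and 0 in LFD mice. Of 6 tendon markers 2 rose in HFD mice and 1 in LFD mice, and both tested Schwann cell markers rose in both diets, with a summed signal of 544.3 to 1334 in the gastrocnemius and 405.3 to 691.4 in the quadriceps of HFD mice. Of 4 adipocyte markers 1 fell in HFD mice and 3 in LFD mice, and of 5 neutrophil markers 3 fell in HFD mice, 0 in LFD mice and 5 in the averaged difference. The neutrophil sum was at most 37.1 in the gastrocnemius and 12450 in the quadriceps of HFD mice, and at most 37.5 in the gastrocnemius and 2537 in the quadriceps of LFD mice. Its median was 34.15 and 1244 in HFD mice, and 34.55 and 35.8 in LFD mice. The 5 tested markers were over 20 on no gastrocnemius array and on 3 to 6 of 10 quadriceps arrays in each diet. They thus entered the tests through part of the quadriceps arrays, and the counts do not describe every mouse. Of 5 endothelial markers 0 were called, and of 2 markers of the neuromuscular junction 1 rose in HFD mice. The part of these cell types in the levels of *Six4* and *Eya1* was not tested.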

How the data were processed

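Gastrocnemius and quadriceps RNA of 20 mice was measured on 40 arrays. The authors reassigned probes to Entrez genes, normalized the arrays by quantiles and used GC-RMA (version not given in the sources used here). They deposited linear signal intensity values for 16539 probe sets, and the 64 control probe sets were removed. Names came from the platform annotation, updated to RefSeq, and 695 probe sets have no symbol. No arrays held identical values. The number of arrays limits the precision.

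Log2 intensities were analysed in limma 3.58.1 (R 4.3.3) for probe sets with a mean over 20. Muscles were compared within each diet on 20 arrays, and interaction, diet effects and the averaged difference in a fit of 4 groups. Genes were called where the fold change exceeded 1.3 with an FDR under 0.05 (the interaction: FDR alone). The script was tested on simulated data. The labels number the mice, and both muscles come from the same animal. The correlation of their deviations had a median of -0.069 in HFD mice (3 of 10 pairs over 0.1) and 0.388 in LFD mice (9 of 10). The main fit has no mouse block, which was an alternative, as were other filters, an offset of 16, repeated normalization, a trended robust variance, array weights, 1 fit of 40 arrays, the FDR alone and leaving out each mouse. The averaged difference, leaving out 11 arrays and *Myl3* in the slow fiber mean were added after seeing the data. Correlations used 100000 permutations, two-sided (Python 3.11.15, numpy 2.4.6). The genes and lists were chosen with earlier results of these data known. Named genes are the regulators, list genes that were called and otherwise up to 4 per list with the highest signal, of which some are given as counts, and the 3 most correlated genes. *Lbx1* and unnamed probe sets were not analysed here.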

Additional observations from a re-analysis of the deposited data

Results flagged for a closer look

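Signals of the 7 regulators in the 4 groups, 28 sets of 10 arrays, were searched for an array far from the others of its group, which chance gives in about 1 of 20 sets. In the quadriceps of HFD mice, *Six2* was 18.8 in mouse 151, with 14.3 as the next highest signal. In the quadriceps of LFD mice, *Eya2* was 5.2 in mouse 142, with 4.4 as the next highest. Both genes had mean signals under 20.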

How the results depend on the processing

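The count of regulators called was 0 in all comparisons. In LFD mice it was 1 with array weights (*Eya1*, log2 difference -0.40, adjusted p = 0.0181) and 1 by the FDR alone (*Six4*), and for the averaged difference it was 2 by the FDR alone. It was 0 with a fixed or a random replicate block for the mouse, with which the genes called among all tested numbered 233 and 223 in HFD mice (224 without) and 219 and 225 in LFD mice (163 without). It was also 0 under the other alternatives and in every fit that left out a mouse (lowest 0, highest 0). In LFD mice, the adjusted p of *Six4* was 0.00403 to 0.054 over the alternatives and 0.0107 to 0.116 with 1 mouse left out, where it passed 0.05 in 3 of 10 fits, and that of *Eya1* was 0.00884 to 0.134 and 0.0812 to 0.183. *Meox2* averaged over diets passed the FDR with the fixed replicate block alone (adjusted p = 0.0493). Of 474 values of single genes, 456 kept their direction and call, 4 became calls as above or by the FDR alone, and 14 changed sign without a call, all of the diet effect of *Eya1* or *Meox2* in the gastrocnemius. Relations with slow fiber genes that passed numbered 1, 0 without the mice farthest from the median, 1 without mouse 141, 1 with *Myl3* in the slow fiber mean and 0 without the 11 arrays that stood apart. Relations between the muscles of a mouse that passed numbered 2, and 0 without the farthest mice, without mouse 141, without those arrays (11 mice left, r = 0.63 for *Meox2* and 0.47 for *Eya1*) or when all 7 regulators were adjusted together. Signals near the array median limit *Six2*, *Eya4*, *Eya2* and *Pitx1*.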
